A study of Sus scrofa with 13 samples.

Results

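The genes described here carry out the uptake, activation and mitochondrial beta-oxidation of long-chain fatty acids, the main fuel of the adult heart. A list of 30 genes was taken from fatty acid metabolism, and every probe set whose platform gene symbol is on that list was used. A probe set is the group of short probes on an array that reads a single transcript. Of the 30 genes, 25 had at least 1 probe set, and 23 of these were bright enough to be tested, among 5196 genes tested in all. CD36, ACOT1, ACOT2, MLYCD and ACACB had no probe set with their symbol and are not analysed here. CPT2 and UCP3 had probe sets under the intensity filter. CPT2 is described by level only, and UCP3 by level and by its correlation with UCP2.

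RNA came from heart drill biopsies of 13 female Sinclair miniswine, operated on at 3 months of age and about 10 kg, in which diagonal branches of a main coronary artery, the left anterior descending, had been tied off for good. All 13 animals thus carried a myocardial infarct. Of these, 7 then received 50000000 stem cells (called MPCs in the protocol) in 2 ml saline, spread over 5 injection sites around the infarct, and 6 received 2 ml saline at similar sites. Biopsies were taken 4 months after the procedure, and each numbered replicate, taken here as 1 animal, has 1 Affymetrix porcine array. The place of each biopsy relative to the scar is not given. The labels number the arrays as replicates without naming the animals, so p-values measure the spread between these samples. The comparison asks whether these genes differed between the groups at that time.

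A fatty acid enters the cardiomyocyte with the help of membrane transporters, is bound by a small cytosolic protein and is joined to coenzyme A. The carnitine shuttle then moves the acyl group across the mitochondrial membranes, where CPT1 is the step that malonyl-CoA inhibits. Inside, a cycle of dehydrogenation, hydration, a further dehydrogenation and thiolysis shortens the chain, and electrons pass through the electron transfer flavoprotein to the respiratory chain. The genes of this pathway are shared targets of PPAR nuclear receptors and their coactivators, and their expression is known to fall in failing hearts.

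None of the 23 tested members passed the threshold between stem cell and saline animals, nor did any other probe set. In the limma fit over 14399 probe sets, 0 members had an adjusted p under 0.05, against 0% of all probe sets, and the lowest adjusted p among the members was 0.519. At an unadjusted p under 0.05 the count was 0 of 23, against 10.5% of all probe sets, of which 5.15% were lower and 5.4% higher after stem cells. The 3 members under an unadjusted p of 0.10 were CPT1A, ACADVL and UCP2, where 18.2% of all probe sets met that limit. In 0 members did all stem cell animals lie on 1 side of all saline animals, against 0.278% of all probe sets. The log2 difference, stem cells minus saline, was negative in 15 of 23 members, against 47.2% of all probe sets. Its median was -0.083 over the members and 0.017 over all probe sets.

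The intervals say how much each difference could be. All 23 of the 95% intervals held 0. For 21 members the interval lay within a log2 change of 1 either way, that is less than a doubling or halving, and for 13 it lay within 0.5. CPT1B and ECI2 had the wide intervals, reaching -1.03 and -1.27. The spread between stem cell animals was larger than that between saline animals in 16 of 23 members. In lists described further on it was larger in 23 of 40 other pathway genes, 10 of 14 cardiomyocyte and 6 of 8 endothelial markers. For macrophage and fibroblast markers the counts were 5 of 9 and 4 of 9. The share over all probe sets was not computed, so this is not a trait shown for the members alone.

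**Figure D1:**
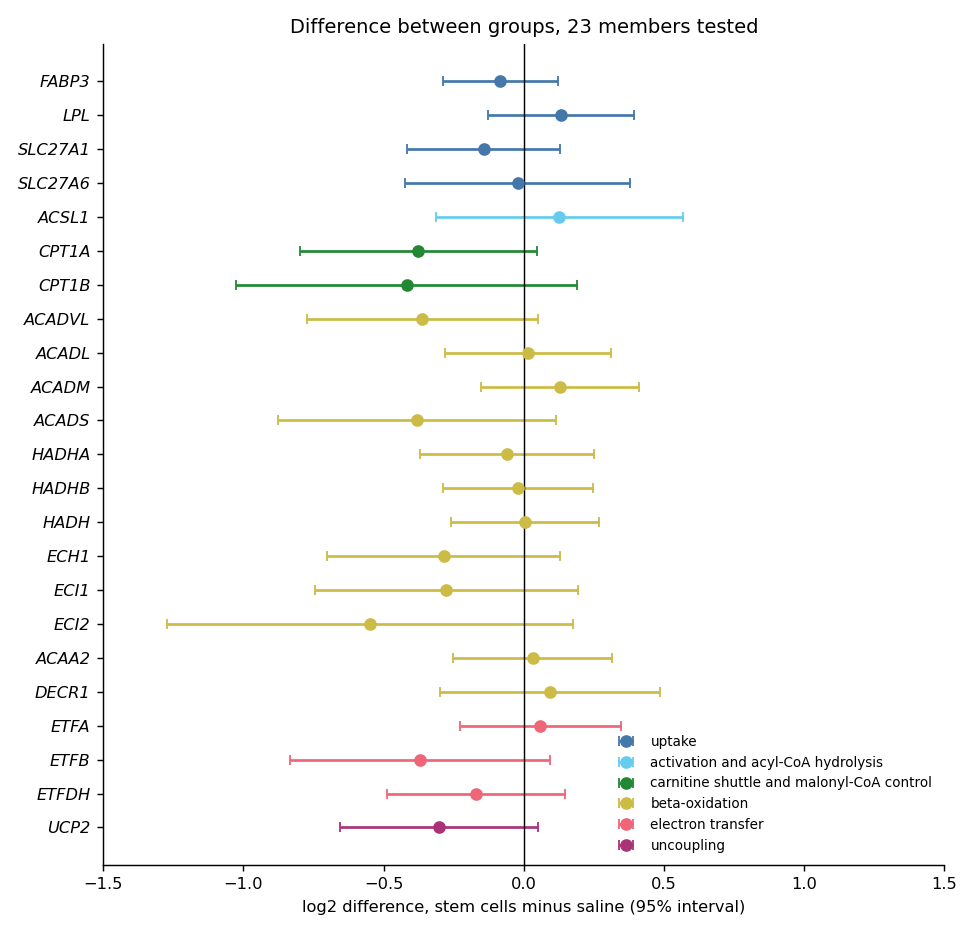
Log2 difference in intensity between stem cell (n = 7) and saline (n = 6) animals for each of the 23 tested members, coloured by step of the pathway; points are limma estimates and bars their 95% intervals. Every interval crosses 0, and the points run from -0.55 for ECI2 to 0.13 for LPL.

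In the uptake step, 4 of 5 genes were measured and the differences were small. FABP3 encodes the fatty acid binding protein of heart muscle. Its log2 intensity had a low of 12.62, a median of 12.96 and a high of 13.15 after stem cells, and 12.92, 12.98 and 13.27 after saline. The ranges overlapped, with stem cells replicate 4 lowest of the 13 animals, and the difference was -0.08 ± 0.097 (log2, SE; limma adjusted p of 0.774). LPL encodes lipoprotein lipase, which frees fatty acids from circulating lipoproteins. LPL ran from 12.95 through a median of 13.03 to 13.44 after stem cells, and from 12.63 through 13.06 to 13.25 after saline. Its difference of 0.13 ± 0.12 (SE) went with 2 stem cell animals above every saline animal, replicates 3 and 6. A second LPL probe set gave 0.05 and correlated with the first at 0.793 across the 13 arrays.

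The transporters SLC27A1 and SLC27A6, members of the fatty acid transport protein family, were dim here. The SLC27A1 mean was 4.23 ± 0.11 in saline animals (SD, n = 6) and 4.09 ± 0.27 in stem cell animals (SD, n = 7). In 4 of the 7 treated animals it was under the saline minimum, and in 2 over the maximum. SLC27A6 averaged 3.58 ± 0.35 and 3.60 ± 0.40, close to the filter level of 3.36, and its other 2 probe sets lay under that level.

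Activation to acyl-CoA was represented by ACSL1, the main long-chain acyl-CoA synthetase of heart. ACSL1 ran from 11.47 through a median of 11.99 to 12.66 after stem cells and from 11.38 through 11.98 to 12.60 after saline. The medians were nearly equal and the ranges overlapped almost fully, with a difference of 0.13 ± 0.21 (SE; interval -0.31 to 0.57).

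Both isoforms of carnitine palmitoyltransferase 1 had lower means after stem cells, and neither passed. CPT1B is the muscle isoform. Its low, median and high were 8.89, 10.18 and 10.63 after stem cells and 9.81, 10.30 and 10.97 after saline. The difference of -0.42 ± 0.29 (SE; adjusted p of 0.609, limma) rested on stem cells replicates 2, 4 and 6, the 3 that lay below the lowest saline animal, while the medians of the groups were close. Without replicates 2 and 4 of that group, a choice made after seeing the values, it was at -0.0572. CPT1A, the isoform best known from liver, was dim, with 4.30, 4.60 and 5.27 after stem cells and 4.82, 5.06 and 5.70 after saline. Here 5 of 7 treated animals were under the saline minimum, but replicates 2 and 4 did not. CPT1A had the smallest p of the members, at -0.38 ± 0.20 (SE; unadjusted p of 0.0769, adjusted p of 0.519 by limma), or 0.771 times the saline level with an interval from 0.575 to 1.03. CPT2, the enzyme of the inner membrane, had a mean of 2.62, near the highest mean of 2.58 among the 17 tag control probe sets that match no pig gene. Its group means were 2.61 and 2.63, so no level or difference can be read from it.

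**Figure D2:**
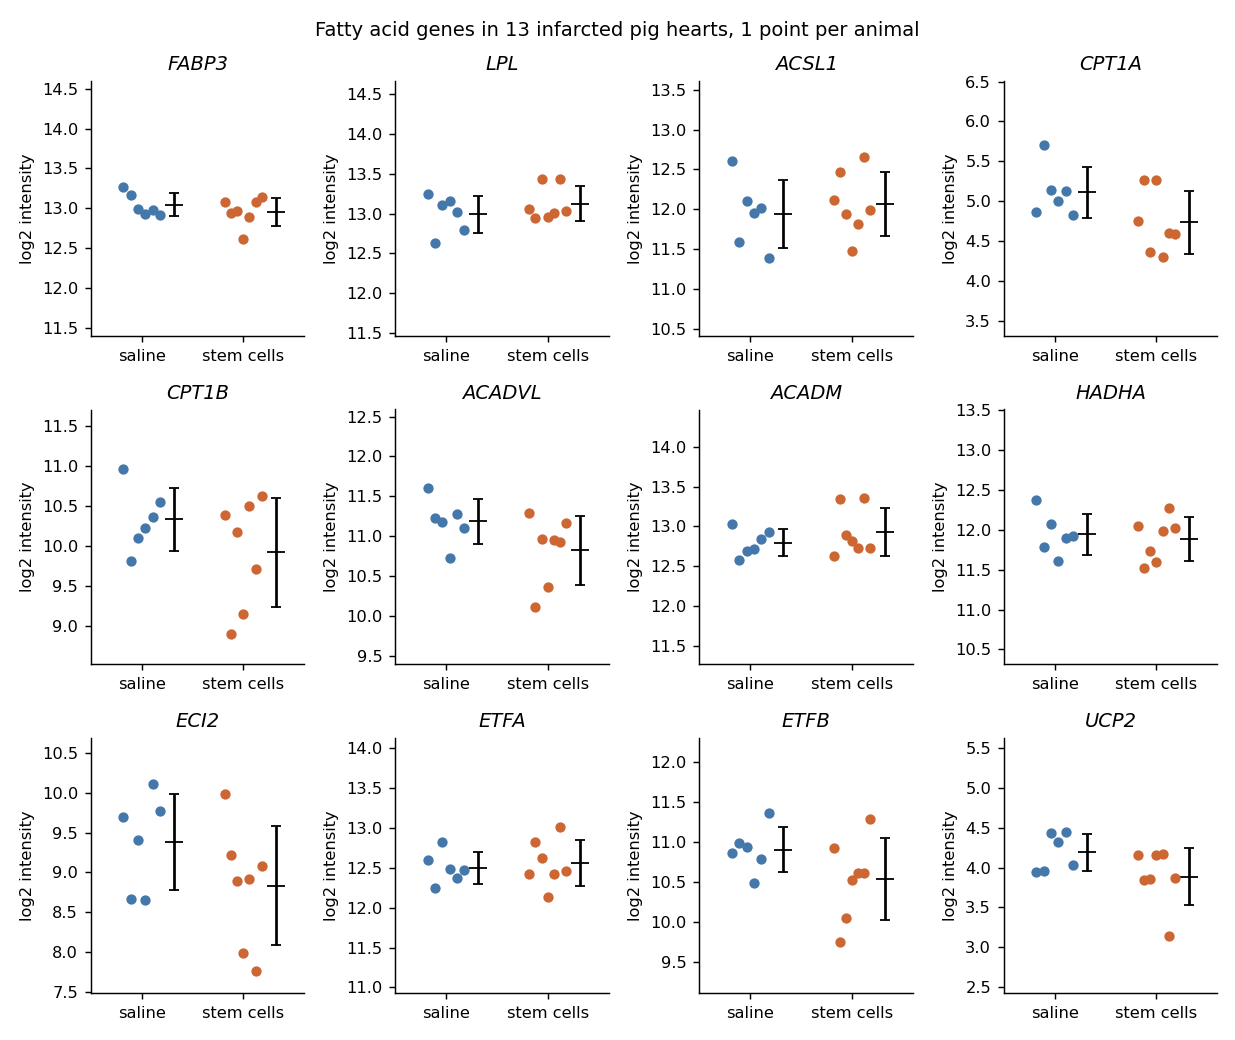
Log2 intensity of 12 members in each of the 13 animals, each panel spanning the same height of 3.2 log2 units; 1 point is 1 animal (sideways position has no meaning) and bars show the mean and SD of a group. The groups overlap in all 12 panels, with 1 to 3 stem cell animals apart at the low end in CPT1B, ACADVL, ECI2, ETFB and UCP2.

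Among the acyl-CoA dehydrogenases, which take the first electrons from the fatty acyl chain, none passed the threshold, and the means after stem cells were below those after saline for the enzymes of very long and short chains. ACADVL, for very long chains, ran from 10.10 through 10.95 to 11.29 after stem cells and from 10.72 through 11.20 to 11.60 after saline. Stem cells replicates 2 and 4 lay below every saline animal, and 6 of 7 treated animals were under the saline mean (difference of -0.36 ± 0.19, SE; unadjusted p of 0.0805, adjusted p of 0.525, limma). ACADS, for short chains, averaged 7.14 ± 0.43 (SD, n = 7) and 7.52 ± 0.43 (SD, n = 6), at -0.38 ± 0.23 (SE). ACADM, for medium chains, ran from 12.63 through 12.82 to 13.36 after stem cells and from 12.58 through 12.78 to 13.03 after saline. In ACADM it was replicates 2 and 6 after stem cells that lay above every saline animal, and the difference was 0.13 ± 0.13 (SE). ACADL, for long chains, was at 0.02 ± 0.14. Whether these 4 differences differ from each other was not tested.

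A second ACADVL probe set behaved unlike the first. Its log2 intensity ran from 1.98 to 9.10 after stem cells and from 2.89 to 5.86 after saline, a spread of many-fold between animals of the same group. Its difference was 1.36 ± 0.99 (SE; adjusted p of 0.626, limma), opposite in sign to the leading probe set, and across arrays the 2 correlated at 0.362. The additional probe sets of HADHB and ETFDH correlated with their leading ones at 0.91 to 0.921.

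The genes of the later steps also passed no threshold. HADHA and HADHB encode the subunits of the mitochondrial trifunctional protein, which carries out the last 3 reactions on long chains. HADHA ran from 11.52 through 11.99 to 12.27 after stem cells and from 11.61 through 11.91 to 12.37 after saline, with a difference of -0.06 ± 0.14 (SE). HADHB was at -0.02 ± 0.13, and its 2 other probe sets were at -0.05 and 0.03. HADH, the dehydrogenase for shorter chains, and ACAA2, a thiolase, were at 0.00 ± 0.12 and 0.03 ± 0.13. DECR1, a reductase needed for unsaturated chains, was at 0.09 ± 0.18. All 5 thus lay within 0.1 of equality, with intervals no wider than -0.37 to 0.49.

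The isomerases of unsaturated fatty acids had lower means. ECI2 had the difference furthest from 0 of the 23 members, at -0.55 ± 0.34 (SE; interval -1.27 to 0.18, adjusted p of 0.579 by limma). Its low, median and high were 7.77, 8.91 and 9.98 after stem cells and 8.66, 9.55 and 10.10 after saline. Stem cells replicates 4 and 6 lay below all saline animals, while replicate 1 of the same group was close to the highest. ECI1 was at -0.28 ± 0.22 and ECH1 at -0.29 ± 0.20 (SE), with 3 and 4 of 7 stem cell animals below the lowest saline animal.

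The electron transfer flavoprotein gave unequal values for its subunits. ETFA, the alpha subunit, averaged 12.56 ± 0.29 (SD, n = 7) and 12.50 ± 0.20 (SD, n = 6), a difference of 0.06 ± 0.13 (SE). ETFB, the beta subunit, averaged 10.54 ± 0.51 and 10.91 ± 0.28, a difference of -0.37 ± 0.22 (SE; adjusted p of 0.562, limma). In ETFB replicates 2 and 3 after stem cells lay below all saline animals. ETFDH, which hands the electrons to ubiquinone, was at -0.17 ± 0.15 (SE).

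Of the uncoupling proteins of the inner mitochondrial membrane, UCP2 was dim and UCP3 lay under the filter. UCP2 ran from 3.14 through 3.87 to 4.17 after stem cells and from 3.94 through 4.18 to 4.45 after saline. All 7 treated animals were under the saline mean and 4 under its minimum, with a difference of -0.30 ± 0.17 (SE; unadjusted p of 0.0871, adjusted p of 0.534, limma). Without stem cells replicate 6, the lowest of all at 3.14, it was at -0.178. UCP3 had means of 3.17 ± 0.13 (SD, n = 7) and 3.19 ± 0.11 (SD, n = 6).

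A wider list of 63 genes around the pathway held 40 that were tested. Of these, 0 passed the threshold (adjusted p, limma). The difference was negative in 31 and positive in 9, where 47.2% of all probe sets were negative. The median was -0.12, against 0.017 over all probe sets. At an unadjusted p under 0.05 the count was 1, against 10.5% of all probe sets. That gene was DBI, the acyl-CoA binding protein that carries activated fatty acids in the cytosol. DBI ran from 11.46 through 12.35 to 12.48 after stem cells and from 12.26 through 12.68 to 12.91 after saline. All 7 treated animals were under the saline mean and 3 under its minimum, at -0.50 ± 0.18 (SE; unadjusted p of 0.0128, adjusted p of 0.42, limma). SLC25A20, the carrier of the carnitine shuttle, was at -0.41 ± 0.26. PDK4, a kinase that turns pyruvate use down and a well-known target of PPAR receptors, was at -0.39 ± 0.26, and the coactivator PPARGC1A at -0.04 ± 0.23. PPARA, the receptor itself, lay under the filter with group means of 2.50 and 2.79. All 8 tested lipid droplet genes had a negative difference, between -0.58 and -0.08, against 47.2% of all probe sets. Of these 8, 0 had an unadjusted p under 0.05, and GPAM and AGPAT2 had means of 3.40 and 3.49, close to the filter at 3.36. Whether the 8 fell together was not tested.

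Although the groups did not separate, the members varied together from animal to animal, and the pairs that passed a test formed 2 sets. Over the 253 pairs of tested members the median Pearson r across the 13 animals was 0.277, against 0.0324 over the 13496610 pairs of all 5196 genes tested. An r over 0.5 was found in 33.6% of member pairs and in 10.8% of all pairs. The 5196 genes reach down to the filter at 3.36, and most members were far brighter. Pairs of equal brightness were not compared, so the part of brightness in this gap was not tested. The arrays are shared by all pairs, and normalization and tissue makeup act on all of them at once, so pairs are not independent. By a permutation test with 100000 resamples, adjusted over the 253 pairs, 26 pairs passed at 0.05 and all 26 were positive. Only 3 of them also passed by Spearman's rho, and 19 kept an unadjusted p under 0.05 without the 2 animals farthest from the median. With each group centred on its mean, 36 pairs passed, the 26 among them. Of these 36, 19 lay within the first of the sets described next, 12 within the second, 0 between them and 5 elsewhere. The sets were formed from the 26, so for those pairs this split was fixed in advance. Only the rest of the 36 could have fallen elsewhere. Of the 5, 3 were negative, CPT1A with CPT1B at -0.83, CPT1A with ECI1 at -0.859 and ETFDH with UCP2 at -0.724. These searches over all pairs were added after seeing the data.

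Joining all members linked by any of the 26 pairs put 16 members into 2 sets. By this construction no passing pair can lie between the sets, and r within them is high in part by choice. The first set held LPL, ACSL1, ACADL, HADH, ACAA2, DECR1, ETFA and ETFDH, with 15 passing pairs and a median r of 0.745. Its closest pair was ACAA2 and ETFA, at r of 0.932 (adjusted permutation p of 0.00253; rho of 0.865, adjusted permutation p of 0.0287), and at 0.871 without stem cells replicates 4 and 6. The second held CPT1B, ACADVL, ACADS, ECI1, ECH1, HADHA, FABP3 and SLC27A1, with 11 passing pairs and a median r of 0.682. Its closest pair was CPT1B and ECI1, at r of 0.908 (adjusted permutation p of 0.00759; rho of 0.806, adjusted permutation p of 0.0559), and at 0.681 without stem cells replicates 2 and 4. Between the sets the median r over 64 pairs was 0.224. The highest was 0.668, for HADHA with HADH (adjusted permutation p of 0.0848), so the sets were not fully apart.

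The signs of the group differences in the sets are given as a description of the same arrays. In the first set 7 of 8 differences were positive, with a median of 0.05. This did not hold with array weights or with the cardiomyocyte marker average as a covariate, where 1 of 8 was positive and the medians were -0.04 and -0.04. In the second set all 8 were negative, with a median of -0.28, and all 8 were negative under those settings too. Without stem cells replicates 2 and 4 the second set had 6 of 8 negative, with a median of -0.06. Since members of a set rose and fell together in single animals, their signs are not separate observations. The sets were formed from these values and are not tested against each other.

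**Figure D3:**
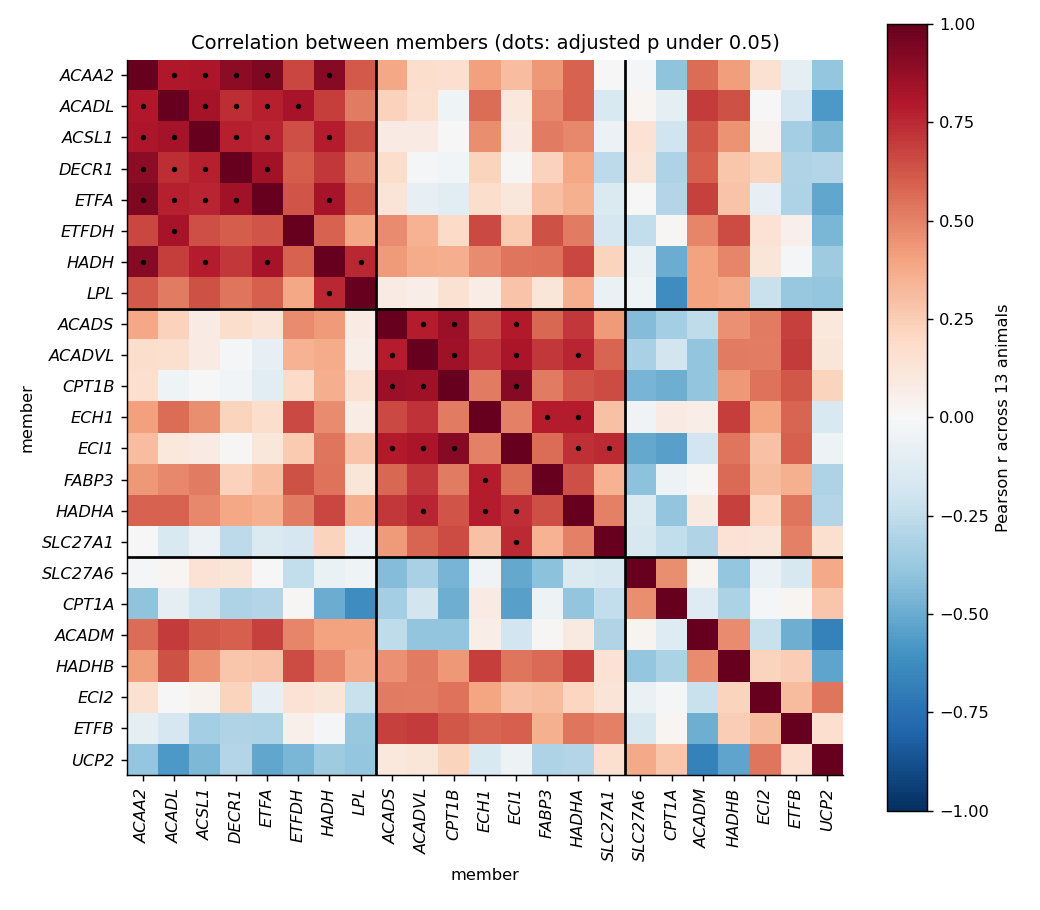
Pearson r between each pair of the 23 tested members across 13 animals, ordered by the 2 sets of members and the 7 members in neither (black lines); dots mark the 26 pairs with an adjusted permutation p under 0.05. Dots mark 15 of 28 pairs in the block of the first set and 11 of 28 in that of the second. The sets were built so that none lies between them, where the median r is 0.224 and the highest 0.668.

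A few animals lay at the extremes in many members. Stem cells replicate 4 lay below the mean of the 13 arrays in all 8 members of both sets, by a median of -0.42 and -0.52. Stem cells replicate 2 lay below it in all 8 members of the second set, by a median of -0.56, but above it in 6 of 8 of the first, by a median of 0.19. Stem cells replicate 6 was above the mean in all 8 members of the first set and highest of all animals in 6 of them. Saline replicate 1 was highest in 7 of 8 members of the second. Over all 23 members, the lowest animal was stem cells replicate 2 or 4 in 6 members each, and the highest was saline replicate 1 in 9. Without stem cells replicates 2 and 4 the passing pairs numbered 7, all among the 26, with 6 in the first set and 1 in the second. With fewer arrays the test also has less power, so this drop does not show how much rested on these animals.

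**Figure D4:**
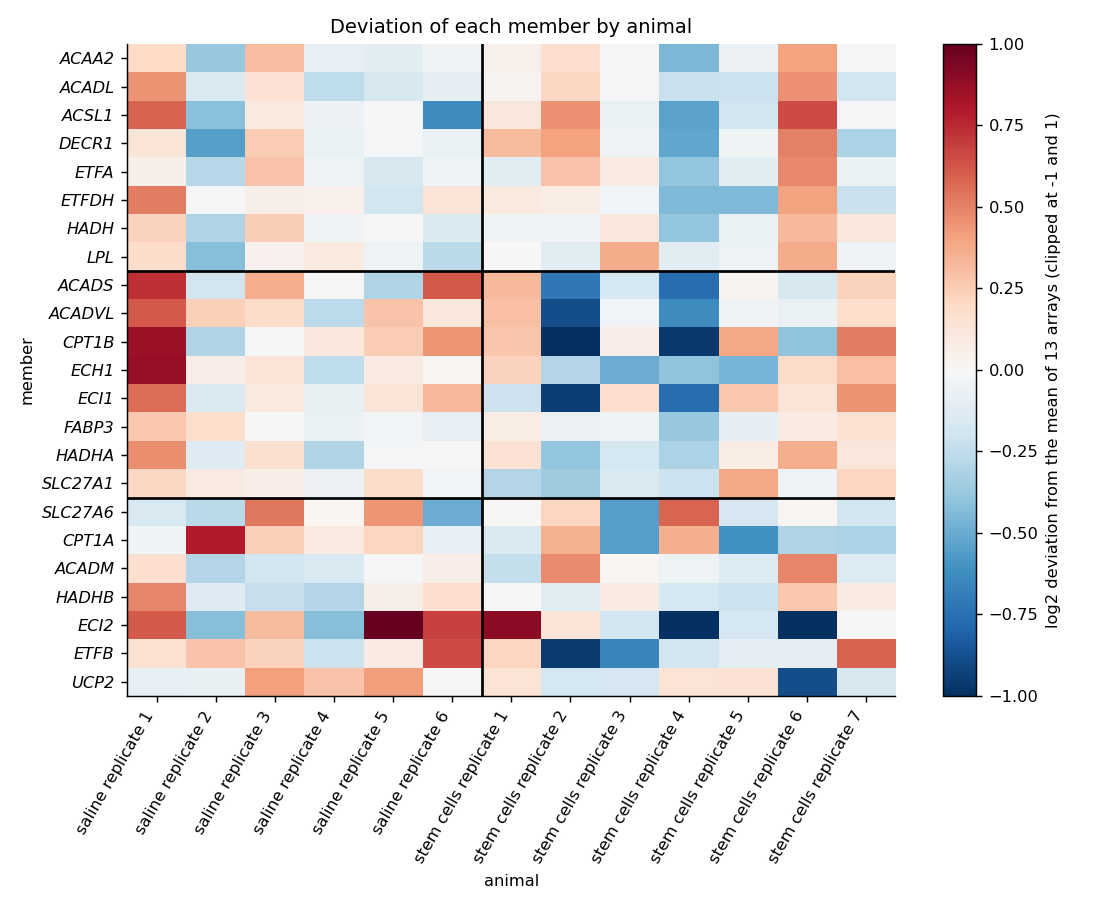
Log2 deviation of each tested member from its own mean over 13 arrays, with members in rows (the 2 sets and the 7 others, separated by black lines) and animals in columns (6 saline, then 7 stem cells). Stem cells replicates 2 and 4 are low across the second set, with medians of -0.56 and -0.52, and saline replicate 1 is high there, with a median of 0.58.

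For 4 pairs of isoforms, subunits or neighbouring genes, the correlation was computed with both coefficients. HADHA and HADHB, which are neighbours in the Sscrofa11.1 annotation, correlated at r of 0.681 (permutation p of 0.00993, adjusted over 4 pairs 0.0397) and rho of 0.44 (permutation p of 0.135, adjusted 0.27). Without saline replicate 1 and stem cells replicate 2 the r was 0.52 (permutation p of 0.102), and without saline replicate 1 alone it was 0.515 (permutation p of 0.0882). With fewer arrays the test has less power, so these values do not show how much rested on those animals. Within saline the r was 0.772 and within stem cells 0.625, and with groups centred it was 0.681 (permutation within groups, p of 0.0127, adjusted over the 4 pairs 0.0254), a test added after the values were seen. ETFA and ETFB, whose products form a single protein, had an r of -0.31 (permutation p of 0.306, adjusted 0.306) and a rho of -0.263 (permutation p of 0.382, adjusted 0.509). They lay in different places in the correlation map, ETFA in the first set and ETFB in neither. UCP2 and UCP3, also neighbours, had an r of 0.369 (permutation p of 0.212, adjusted 0.283) and a rho of 0.0826 (permutation p of 0.786, adjusted 0.786), with UCP3 near background. Their r was -0.729 within saline and 0.879 within stem cells, and -0.115 without saline replicate 5 and stem cells replicate 6.

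The CPT1 isoforms ran opposite to each other within each group. Over all 13 animals CPT1A and CPT1B had an r of -0.491 (permutation p of 0.0893, adjusted 0.179) and a rho of -0.549 (permutation p of 0.0552, adjusted 0.221). Within saline the r was -0.828 and within stem cells -0.844. Both isoforms had the lower mean after stem cells, so the groups lay side by side and the pooled value was weaker than either. With each group centred on its mean, the r was -0.83 (permutation within groups, p of 0.00163, adjusted over the 4 pairs 0.00652), a test added after the group values were seen. This r stayed between -0.866 and -0.774 with any 1 animal left out. Without stem cells replicates 2 and 4 together it was -0.601 (permutation p of 0.0769), and without saline replicate 2 and stem cells replicate 5 it was -0.807 (permutation p of 0.0209). The opposite course was not limited to the isoform pair. CPT1A and the isomerase gene ECI1 had an r of -0.859 with groups centred, -0.739 within saline and -0.926 within stem cells, and CPT1A and ACADS had -0.702 with groups centred.

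**Figure D5:**
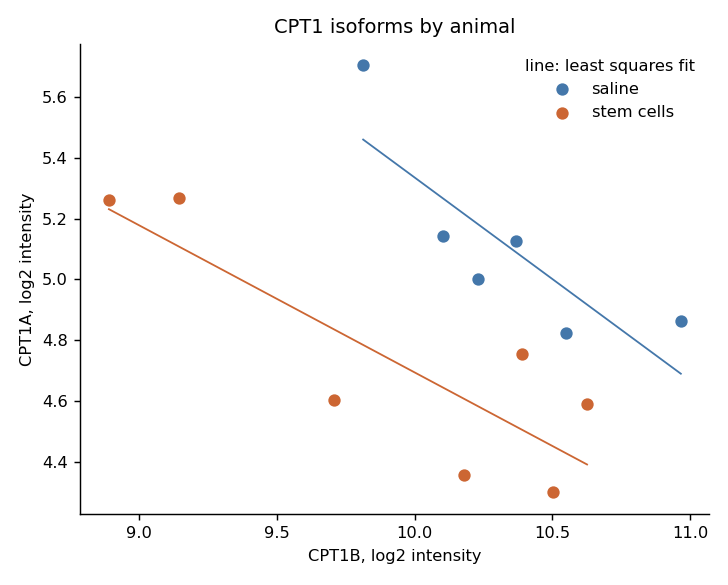
Log2 intensity of CPT1A against CPT1B in each of 13 animals, with a least squares line per group. Both lines slope down, with r of -0.828 within saline and -0.844 within stem cells, and the stem cell line lies below the saline line.

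The cell makeup of the biopsies was read from markers. All 14 measured cardiomyocyte markers were bright, with means between 10.77 and 14.78, and their average per array lay between 13.95 and 14.22 after stem cells and between 13.85 and 14.07 after saline. The fat cell markers ADIPOQ, LEP, CIDEA, PCK1, RETN and LIPE all lay under the filter, ADIPOQ at a mean of 2.70. FABP4, which endothelium also expresses, was the only fat cell marker tested, at 11.60. The fibroblast average ran from 7.91 to 9.59 after stem cells and from 8.02 to 9.84 after saline, and the macrophage average from 6.79 to 7.82 and from 7.10 to 8.12. Of 9 macrophage markers 7 had a negative difference, with a median of -0.31, and TYROBP (-0.76 ± 0.30, SE; unadjusted p of 0.0204, adjusted p of 0.423, limma) and AIF1 (-0.65 ± 0.29, SE; unadjusted p of 0.0387, adjusted p of 0.457, limma) were the 2 with an unadjusted p under 0.05. Of 14 cardiomyocyte markers 12 had a positive difference, with a median of 0.07, and 0 had an unadjusted p under 0.05. The endothelial average ran from 7.28 to 8.43 and from 7.86 to 8.53. Of 8 endothelial markers 2 were under that limit, opposite in sign. They were TEK (0.38 ± 0.17, SE; unadjusted p of 0.0378, limma) and ENG (-0.65 ± 0.29, SE; unadjusted p of 0.0395, limma). Of 9 fibroblast markers 6 had a positive and 3 a negative difference, with a median of 0.18. Only 1 was under that limit, COL3A1 (0.35 ± 0.12, SE; unadjusted p of 0.0112, limma). COL3A1 and COL1A2 were dim, with means of 3.67 and 3.69, close to the filter at 3.36. Over all probe sets 10.5% met the limit and 47.2% had a negative difference, and no marker passed after adjustment. In bulk tissue, fewer cells of a type and less RNA per cell cannot be told apart.

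None of 92 relations between members and marker averages passed after adjustment (permutation test, 23 members against 4 averages, lowest adjusted p of 0.0943), and the values are given as a description. The r with the fibroblast average was negative in 20 of 23 members, with a median of -0.501, and ran from -0.744 for HADH to 0.612 for CPT1A. Without saline replicate 2 and stem cells replicate 4, HADH was at -0.417 (permutation p of 0.199) and CPT1A at 0.203 (permutation p of 0.543). CPT1B was at -0.642 (permutation p of 0.0181, adjusted 0.128; rho of -0.582, permutation p of 0.0398, adjusted 0.244), and at -0.549 without saline replicate 2 and stem cells replicate 4. CPT1A and the macrophage average had an r of 0.776 (permutation p of 0.00199, adjusted 0.0943) and a rho of 0.758 (permutation p of 0.00347, adjusted 0.171), and an r of 0.658 without saline replicate 2 and stem cells replicate 6. LPL and the cardiomyocyte average had an r of 0.781 (permutation p of 0.00205, adjusted 0.0943). Without stem cells replicates 3 and 6 that r was 0.437 (permutation p of 0.175). The r was negative in 15 of 23 members with the macrophage and with the endothelial average, and in 8 with the cardiomyocyte average. The part of cell makeup in the lower CPT1A mean and in the opposite course of the CPT1 isoforms was not tested. With the cardiomyocyte average as a covariate, 0 members passed and 20 of 23 were negative. The negative share of all probe sets with that covariate was not computed. For the EF1A control, the 3' minus 5' log2 intensity, which rises as RNA degrades, ran from 0.712 to 1.01 after stem cells and from 0.798 to 1.07 after saline, with means of 0.815 and 0.947. The same measure averaged 0.535 and 0.522 for GAPDH and 2.89 and 3.13 for actin. Single animals differed widely. GAPDH ran from 0.0244 to 1.12 after stem cells and from 0.101 to 1.12 after saline. Actin ran from 1.61 to 5.03 after stem cells and from 2.21 to 4.20 after saline. The part of RNA quality in these values was not tested.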

How the data were processed

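The members and gene lists were chosen with earlier results of these data known. GCRMA is the tool listed per the submitters' processing notes, with no version or settings. The table the authors deposited holds 1 linear intensity for each probe set and array. Normalization between arrays hides a change shared by most genes. The median intensity per array was 13.5 to 14. Of 24123 probe sets, 124 controls were left out. Intensities were put on the log2 scale, and the probe sets above the 40th percentile of mean log2 (3.36) were tested. Names came from the platform annotation, and all 34 member probe sets matched the Sscrofa11.1 gene table by gene ID. The leading probe set of a gene had the highest mean. Groups were compared with limma 3.58.1 in R 4.3.3 (lmFit, eBayes with a variance trend, Benjamini-Hochberg over all probe sets tested). The fit was also run on simulated data with independent noise for each probe set, which does not cover genes that vary together as here. The labels do not state a batch. Every member is named. Members with an unadjusted p under 0.10 and 12 core genes were to be given in full. Of the core genes CD36 had no probe set, CPT2 is given by mean level only, and UCP3 by mean level and its correlation with UCP2. From the wider list those under 0.05 plus 4 regulators and carriers are given. A correlation planned for MLYCD and ACACB could not be computed here. Arrays are limited in precision by their number. Replicate numbers were used as names of samples, each taken as 1 animal, and pair nothing. Alternatives were other filters, a floor, normalizations, variance models, array weights, a replicate block, a marker covariate, the mean of a gene's probe sets, a threshold of 0.10, and leaving out each animal.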

Additional observations from a re-analysis of the deposited data

Results flagged for a closer look

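In 3 of 54 groups of animals examined, 1 animal stood far from the others of its group by Dixon's ratio of gap to range; chance alone gives about 1 in 20. Saline replicate 2 had the highest CPT1A of its group, at 5.703 against 5.142 for the next animal (ratio of 0.638). Saline replicate 1 had the highest ECH1, at 11.16 against 10.42 (ratio of 0.659). Stem cells replicate 6 had the lowest UCP2, at 3.141 against 3.848 (ratio of 0.687). Without these animals in turn, the log2 differences of CPT1A, ECH1 and UCP2 were at -0.257, -0.142 and -0.178.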

How the results depend on the processing

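No member passed the threshold in limma under any setting run, and the lowest adjusted p of a named gene was 0.284. The count of all probe sets past it was 0 to 1 with 1 animal left out, 1 being reached without saline replicate 5. Members with an unadjusted p under 0.05, 0 as reported, numbered 1 after a second quantile normalization, with arrays centred on their median, with array weights, with the cardiomyocyte covariate and without both stem cells replicates 2 and 4, a choice made after seeing the data. They numbered 0 to 2 with 1 animal left out and 4 with the replicate number as a block (CPT1B, ACADVL, ECH1 and ETFB). The block pairs nothing known: deviations of same-numbered animals correlated between -0.266 and 0.237. The median member difference, -0.083 as reported, ran from -0.126 to -0.0553 with 1 animal left out, and was -0.0316 after quantile normalization, -0.144 with the covariate and -0.0115 without both stem cells replicates 2 and 4. The first set of correlated members had 3 to 7 of 8 positive differences with 1 animal left out, the 3 when either saline replicate 2 or replicate 6 of the stem cell group was dropped.

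Of 700 values of 27 genes under the settings, 57 changed sign, and 14 genes never did. With array weights ACSL1 was at -0.0376, ACADL at -0.094, HADH at -0.0511, ACAA2 at -0.0534, DECR1 at -0.0155 and ETFA at -0.0276. With the covariate LPL was at -0.00749, SLC27A6 at 0.0515, ACSL1 at -0.0162, ACADL at -0.0671, HADH at -0.099, ACAA2 at -0.0487 and ETFA at -0.027. With centring ACADL was at -0.0137 and HADH at -0.026, and with quantile normalization HADHB at 0.0436. With the replicate block SLC27A6 was at 0.00605, HADH at -0.0148 and PPARGC1A at 0.00225. ACADVL was at 0.501 as the mean of its probe sets and at 1.36 by the other one. Without both stem cells replicates 2 and 4, HADHA was at 0.0712, HADHB at 0.0343, ECI1 at 0.0133 and PPARGC1A at 0.191.

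With 1 animal left out, ACAA2 ran from -0.0411 to 0.109, ACADL from -0.0584 to 0.108, DECR1 from -0.00466 to 0.188, ETFA from -0.0161 to 0.13 and HADH from -0.0562 to 0.0709. HADHA ran from -0.126 to 0.0262, HADHB from -0.0825 to 0.0747, PPARGC1A from -0.182 to 0.0727 and SLC27A6 from -0.124 to 0.0807. The r of UCP2 and UCP3 ran from -0.339 to 0.555 and was 0.651 with arrays centred (permutation p of 0.0331), and that of HADHA and HADHB ran from 0.515 to 0.787. Without both stem cells replicates 2 and 4, 7 pairs of members passed and the r of CPT1A and CPT1B within groups was -0.601. The causes were not tested. The number of arrays and, for CPT2, UCP3, SLC27A6, UCP2 and SLC27A1, low intensity near background limit what can be seen.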
